A study of Mus musculus with 4 samples.

Results

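Peroxisomes depend on proteins other than the enzymes of the β-oxidation spiral, and 9 genes for such proteins were followed in mouse liver: the ABC transporter genes Abcd2, Abcd3 and Abcd4, the branched-chain fatty acid genes Phyh, Hacl1 and Scp2, and the peroxide and glyoxylate genes Cat, Hao1 and Agxt. They were chosen by gene symbol or older synonym (Abcd3, for example, was formerly Pxmp1 or PMP70), and all 9 have at least 1 probe set, 14 probe sets in all, out of 12393 named genes on the array. The liver came from male mice of 12 to 20 weeks. Wild-type mice, labelled 129S1/SvImJ, and PPARα-null mice, labelled 129S4/SvJae, received normal food or the same food with 0.1% of the synthetic PPARα agonist Wy14643 for 5 days. Each of the 4 groups is 1 pool of liver RNA from 5 mice by the design text, hybridized to 1 Affymetrix MOE430A array. The pool size is given slightly differently elsewhere in the study. No replicate therefore exists, no test over mice was possible, no error can be attached to a ratio, and genotype cannot be told apart from the difference in labelled substrain.

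A peroxisome imports very long-chain and branched fatty acids through ABC transporters of subfamily D, which act as dimers, and shortens them by oxidation steps that release hydrogen peroxide. Catalase removes this peroxide. Fatty acids with a methyl group on the third carbon, such as phytanic acid, first lose a carbon by α-oxidation, and the liver peroxisome also disposes of glyoxylate, which otherwise turns into oxalate. PPARα, the receptor that Wy14643 activates, was named for the growth of peroxisomes in rodent liver under such compounds.

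Ppara itself had an intensity of 847 on control diet and 1250.1 on Wy14643 for wild-type pools, and of 326 and 428 for PPARα-null pools. It was lower in both PPARα-null pools. Whether the probes sit within the sequence removed in these mice was not determined. For the wild-type pool on Wy14643, the description matches the control's, so the group was taken from the title. An intensity was taken as above background when it exceeded 13.9, the value that 90% of 67 probe sets stay under for 45 genes of other tissues, which between 50.8% and 51.6% of probe sets did on each array. Genes counted as higher or lower differed by 1.5-fold or more, and those in between as neither. Of 7 hepatocyte markers on the array, all 7 were above background on the 4 arrays.

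The upstream sequences of 4 members whose ratios passed the threshold in some comparison are shown first, as CpG content is a basic property of a promoter. RefSeq promoter sequences (build GRCm38.p6, strain C57BL/6J, not the strains of these mice) were at hand for 7 of the 9 genes, and those 4 are given 5′ to 3′ over the 250 bases before the gene start with every CpG in capitals. Abcd3 and Hacl1, both above 1.5-fold in favour of wild-type mice with either food, have 34 and 15 CpG. Hao1 and Agxt, both lower on Wy14643 in wild-type mice, have 4 and 2.
Abcd3, chr3:121815303-121815552, minus strand: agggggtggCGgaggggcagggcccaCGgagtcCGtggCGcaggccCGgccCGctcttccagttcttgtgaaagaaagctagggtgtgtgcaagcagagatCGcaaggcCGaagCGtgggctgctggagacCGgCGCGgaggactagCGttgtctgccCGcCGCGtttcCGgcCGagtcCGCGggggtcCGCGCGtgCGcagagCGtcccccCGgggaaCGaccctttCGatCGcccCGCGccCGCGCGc
Hacl1, chr14:31640966-31641215, minus strand: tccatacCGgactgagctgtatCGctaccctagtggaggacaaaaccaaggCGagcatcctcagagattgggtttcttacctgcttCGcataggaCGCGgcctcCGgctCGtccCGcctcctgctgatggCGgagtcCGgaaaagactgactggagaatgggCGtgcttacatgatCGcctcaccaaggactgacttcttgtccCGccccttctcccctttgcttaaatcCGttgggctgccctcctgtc
Hao1, chr2:134554353-134554602, minus strand: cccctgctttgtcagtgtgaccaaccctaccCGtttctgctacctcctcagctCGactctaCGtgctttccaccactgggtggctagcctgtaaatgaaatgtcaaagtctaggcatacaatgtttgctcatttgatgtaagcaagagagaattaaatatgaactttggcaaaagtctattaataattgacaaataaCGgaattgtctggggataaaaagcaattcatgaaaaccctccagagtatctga
Agxt, chr1:93134990-93135239, plus strand: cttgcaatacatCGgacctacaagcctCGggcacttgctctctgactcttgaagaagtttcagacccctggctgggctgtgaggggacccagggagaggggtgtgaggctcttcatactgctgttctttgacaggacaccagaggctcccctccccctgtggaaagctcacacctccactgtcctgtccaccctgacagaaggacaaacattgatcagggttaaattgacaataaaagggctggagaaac

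Over 32841 promoter windows of the same length, the median number of CpG was 6. As many as in the Abcd3 window occurred in 3.53% of them and as many as in the Hacl1 window in 27.3%, whereas 29.0% had as few as Agxt and 44.4% as few as Hao1. The windows of Cat and Phyh held 9 CpG each and that of Scp2 held 10, between these values. Apart from Abcd3, none of these counts is rare among all windows, and with 7 genes this is a description of the sequences only.

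PPARα binds as a dimer with RXR to a direct repeat known as DR1, in which the hexamer AGGTCA is followed by any single base and by AGGTCA again. The hexamer was searched on both strands and was found in 2 of the 7 genes, Cat and Scp2, against 14.0% of all windows. It is shown in capitals in the 60 bases around it, together with the rest of the repeat for Cat.
Cat, chr2:103485322-103485381, minus strand: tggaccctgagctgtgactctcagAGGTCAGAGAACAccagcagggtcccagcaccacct
Scp2, chr4:108118621-108118680, minus strand: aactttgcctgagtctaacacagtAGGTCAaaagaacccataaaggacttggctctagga
The Cat stretch matches 10 of the 12 fixed letters of the repeat, as do at least that many letters in 3.24% of all windows. In the other genes, Scp2 included, the best match was 7 or 8 letters, which 74.5% or more of all windows reach. The Scp2 window precedes a start that lies inside the annotated gene, so it is not the window of its longer transcript. None of these letters shows whether PPARα binds there, and sequence outside these short upstream windows was not searched. Cat, with the closest match, was among the members whose intensity differed least between the arrays. Whether a match in the window goes with a difference in intensity was not tested.

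**Figure D1:**
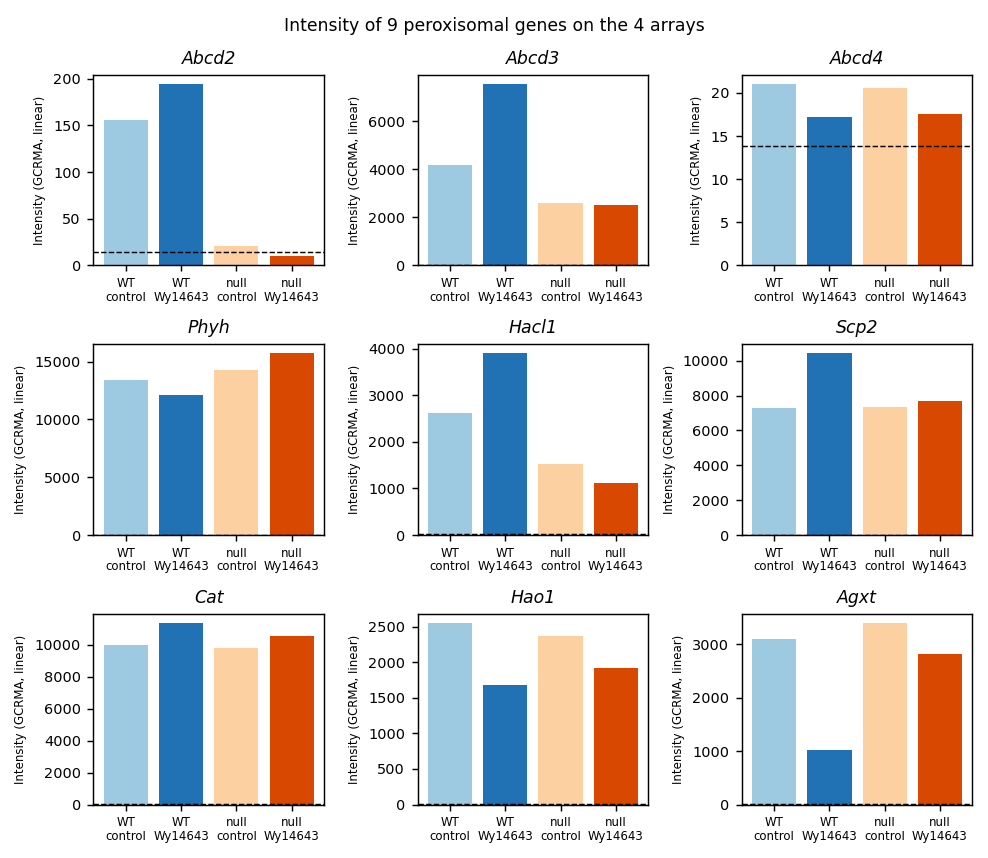
Intensity (GCRMA, linear scale) of the probe set with the highest mean for each of the 9 genes on 4 arrays, from wild-type and PPARα-null mice on control diet or Wy14643, 1 array of pooled RNA each, with background at 13.9 as a dashed line. Abcd2, Abcd3 and Hacl1 stand higher on both wild-type arrays than on both PPARα-null arrays, and Phyh stands slightly lower on both. The share of all genes that separate in this way was not computed. Agxt stands lowest on the wild-type Wy14643 array.

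With Wy14643 in the food, 3 of the 9 genes stood 1.5-fold or more higher in wild-type mice than in PPARα-null mice, 1 was lower and 5 lay between. Of 7399 genes above background on either array compared, 17.1% were higher and 18.3% lower. Without it the counts were 3 higher and 0 lower, where 2.49% of all genes were higher and 2.57% lower. The same 3 genes, Abcd2, Abcd3 and Hacl1, made up the higher group on both diets. The lower gene on Wy14643 was Agxt. Within wild-type mice, Wy14643 left 1 gene higher (Abcd3) and 2 lower (Hao1 and Agxt), against 15.5% and 16.5% of all genes. Within PPARα-null mice 0 were higher and 1, Abcd2, was lower, against 2.35% and 4.57%, and Abcd2 was below background in the treated pool, so that its smallest ratio of 1.49 stays under the threshold. Of the 9 genes, 7 (all but Abcd2 and Abcd4) had a mean intensity of 1000 or more, and the shares among all 1025 such genes, a comparison added after the values were seen, differ from those over all genes. Between the genotypes on Wy14643, 19.3% of bright genes were higher and 28.1% lower, against 2 and 1 of the 7. On the control diet 4.29% were higher and 1.37% lower, against 2 and 0. When wild-type mice on Wy14643 were set against their controls, 17.8% were higher and 25% lower, against 1 and 2. The median log2 ratio of the 9 genes was 0.11 between the genotypes on Wy14643 and 0.03 on the control diet, and for Wy14643 over control it was 0.19 in wild-type and -0.23 in PPARα-null mice. The medians of all genes were -0.02, -0.03, 0.02 and 0.00 in the same order. The 4 comparisons share arrays in pairs, so they are not independent of each other.

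**Figure D2:**
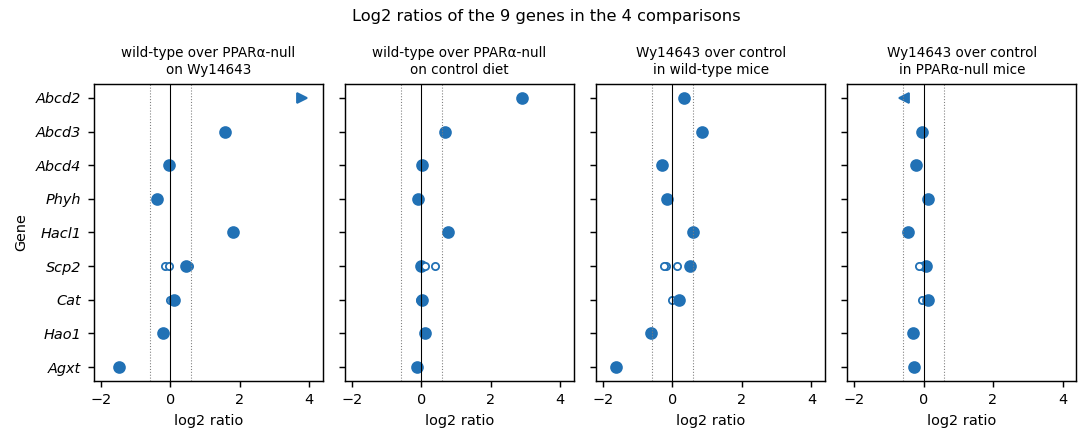
Log2 ratios of the 9 genes in the 4 comparisons. Filled symbols are the probe set with the highest mean and open circles the other probe sets of that gene, triangles give the least ratio that background allows for a dim array, and dotted lines mark 1.5-fold. Between the genotypes, Abcd2 has the largest ratio on both diets, and in PPARα-null mice every ratio other than that of Abcd2 lies between -0.46 and 0.14.

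The ABC transporter genes Abcd2 and Abcd3 differed in their ratios, and Abcd4 was too near background to be compared with them. Abcd2, whose product carries very long-chain and polyunsaturated fatty acids, had an intensity of 155.5 (control) and 194.7 (Wy14643) for wild-type pools, and 20.7 and 10.5 for PPARα-null pools. The last of these values is below background. Wild-type mice exceeded PPARα-null mice by 7.52-fold on the control diet, where only 4 of 7109 genes had a larger ratio, and by at least 14.0-fold on Wy14643. The ratio of Wy14643 to control within wild-type mice was small beside this, at 1.25-fold. Abcd2 is a gene of adipose tissue and brain as well as liver. Of 5 adipocyte markers listed, 3 were on the array (Adipoq, Lep and Retn). All 3 were below background on all 4 arrays, with a summed intensity of 20.7 to 24.4. The part of other tissues in the Abcd2 ratios was not tested.

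Abcd3 encodes PMP70, an abundant protein of the peroxisomal membrane that takes up long-chain dicarboxylic and branched-chain acyl-CoA, among them the bile acid intermediates. Its intensity went from 4170 on control diet to 7570 on Wy14643 among wild-type mice, and from 2612 to 2534 among PPARα-null mice. Wild-type mice on Wy14643 stood highest, and the PPARα-null pools were close to each other. The Wy14643 pool exceeded the control pool by 1.82-fold for Abcd3 in wild-type mice, and the pools differed by 1.03-fold in PPARα-null mice. The wild-type excess over PPARα-null mice was 1.60-fold with control food and 2.99-fold with Wy14643, so that 42.8% of the log2 gap on Wy14643 was present on the control diet.

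Abcd4, which despite its family takes part in cobalamin export from lysosomes, was dim. Its brighter probe set read 21.1 and 17.2 in wild-type mice and 20.6 and 17.6 in PPARα-null mice on control diet and Wy14643, just above background on each array, and the other probe set, between 4.37 and 4.82, was below background throughout. The genotypes differed by no more than 1.02-fold on either diet. So near background, these arrays measured Abcd4 poorly.

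Other genes for channels and carriers of the peroxisomal membrane were measured beside these. Of 6, 4 were higher in the wild-type pool on Wy14643 than in its PPARα-null counterpart and 1 was lower, with a median log2 ratio of 1.30. The membrane protein gene Pxmp4 was 15.4-fold, Tmem135 6.42-fold and the carrier gene Slc25a17, which supplies the organelle with cofactors, 3.60-fold higher, while the channel gene Pxmp2 was 1.63-fold lower. The dimmer probe set of Tmem135 gave a smaller log2 ratio on Wy14643, at 1.23. On the control diet only Pxmp4 passed the threshold in this group, at 4.46-fold.

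Along the α-oxidation route, successive steps differed. Phyh, which encodes the phytanoyl-CoA hydroxylase that opens the route, had intensities of 13449 and 12074 in wild-type mice and 14305 and 15737 in PPARα-null mice on control diet and Wy14643. All 4 values lay within 1.30-fold of each other, with wild-type mice on Wy14643 lowest. Hacl1 encodes 2-hydroxyacyl-CoA lyase, which splits off the carbon in the next step. Its intensity was 2611 (control) and 3903 (Wy14643) for wild-type pools, and 1528 and 1109 for PPARα-null pools. Both wild-type values of Hacl1 lay above both PPARα-null values, and for Phyh the reverse held. The share of all genes that separate in this way was not computed. For Hacl1, Wy14643 was accompanied by a higher value in wild-type and a lower one in PPARα-null mice.

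The wild-type excess of Hacl1 over PPARα-null mice was 1.71-fold with control food and 3.52-fold with Wy14643. Wild-type mice given Wy14643 exceeded their controls by 1.49-fold (log2 ratio 0.58), just under the threshold, and PPARα-null mice given it were 1.38-fold below theirs (-0.46). The gap between the genotypes on Wy14643 therefore combined a gap on the control diet (42.6% on the log2 scale) with ratios of opposite sign in the genotypes.

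Scp2 gives rise to a thiolase of branched-chain and bile acid side-chain oxidation and, from an internal start, to a smaller lipid carrier. By the probe set with the highest mean, its intensity was 7284 (control) and 10434 (Wy14643) for wild-type pools, and 7354 and 7679 for PPARα-null pools. The wild-type Wy14643 pool stood apart from 3 nearly equal pools and was 1.43-fold higher than the wild-type control. The next probe set read 6686, 5676, 6255 and 5760 in the same order and gave a ratio in the opposite direction, 1.18-fold lower on Wy14643 in wild-type mice. The other 2 probe sets were dimmer, at 128.5 or less, and showed log2 ratios of 0.12 and -0.19 in this comparison. No Scp2 probe set reached 1.5-fold in any comparison, and which transcript each probe set detects was not determined here.

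**Figure D3:**
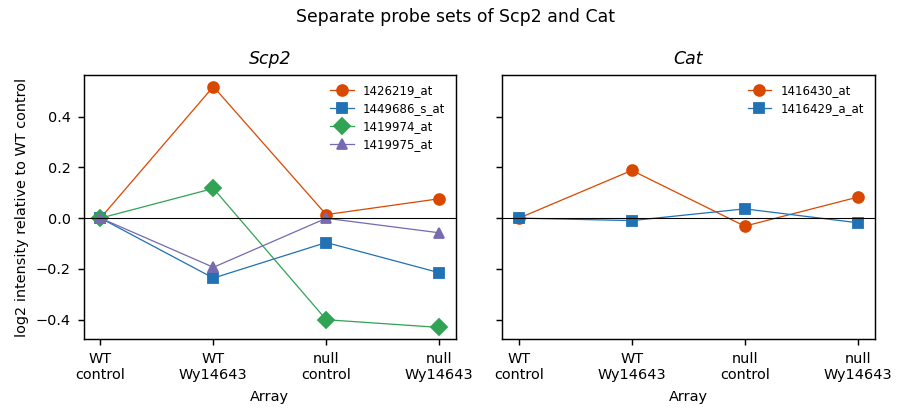
Log2 intensity of each probe set of Scp2 and Cat relative to the wild-type control array, on the 4 arrays. The brightest Scp2 probe set lies at 0.52 on the wild-type Wy14643 array and the next at -0.24, while neither Cat probe set moves by more than 0.19.

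Of 9 other measured genes for branched-chain and bile acid side-chain steps, 3 favoured the wild-type pool on Wy14643 by 1.5-fold or more, 3 were lower there and 3 lay between (median log2 ratio 0.36). The peroxisomal thioesterase gene Acot8 was 8.51-fold higher, the fatty aldehyde dehydrogenase gene Aldh3a2, which completes α-oxidation, 6.72-fold and the carnitine octanoyltransferase gene Crot 1.95-fold. The bile acid conjugation gene Baat was 2.63-fold lower, the bile acid-CoA ligase gene Slc27a5 2.22-fold and Pecr, a reductase gene of phytol breakdown, 1.87-fold. Phyh and Hacl1 thus sat among genes of the same routes that went in both directions. By contrast, all 7 measured genes of straight-chain peroxisomal β-oxidation were higher in wild-type mice on both diets, with median log2 ratios of 2.43 on Wy14643 and 1.49 on the control diet. Decr2 (19.4-fold), Eci2 (11.6-fold) and Ech1 (11.5-fold) led them on Wy14643. The difference between these groups of genes was not tested.

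**Figure D4:**
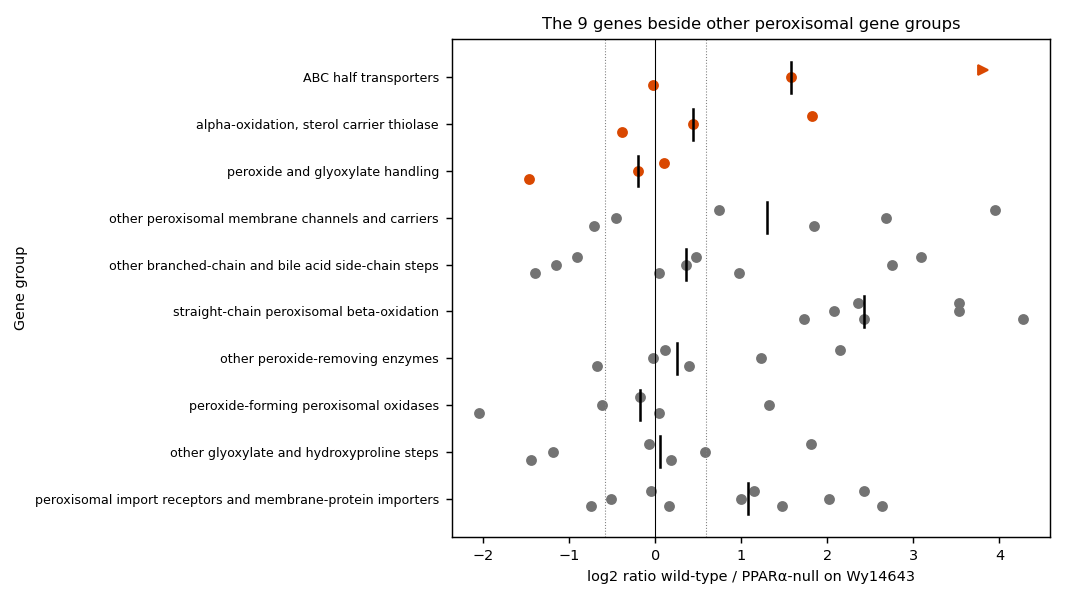
Genotype ratio (log2, wild-type over PPARα-null) with Wy14643 for the 9 genes (orange) and other peroxisomal gene groups (grey), with group medians as black bars, dotted lines at 1.5-fold and triangles for the least ratio that background allows. The 7 straight-chain β-oxidation genes all lie to the right of 1.5-fold, while the peroxide and glyoxylate genes reach from -1.47 to 0.11.

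Catalase was nearly level. Cat had intensities of 9988 and 11379 in wild-type mice and 9772 and 10577 in PPARα-null mice on control diet and Wy14643 by its brighter probe set. All 4 lay within 1.16-fold, with the Wy14643 pools slightly above the control pools in both genotypes. The other probe set ranged from 5855 to 6082 and gave no ratio above 1.04-fold. On Wy14643 the genotypes differed by 1.08-fold and 1.01-fold by these probe sets. Both lay far above background, although saturation of bright probes cannot be judged from the deposited values.

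Among 6 other measured genes of peroxide removal and detoxification, on Wy14643 the wild-type pool was higher for 2 and lower for 1 (median log2 ratio 0.25). The soluble epoxide hydrolase gene Ephx2 was 4.42-fold and the peroxisomal glutathione transferase gene Gstk1 2.34-fold higher. The superoxide dismutase gene Sod1 was 1.60-fold lower by its brighter probe set, while the other, close to background, gave a log2 ratio of 0.56. Genes for peroxisomal oxidases that produce peroxide were split. Of 5 measured, Hao2 was 2.51-fold higher, and the sarcosine and pipecolate oxidase gene Pipox (4.15-fold) and the urate oxidase gene Uox (1.54-fold) were lower in wild-type mice.

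Agxt and Hao1, the glyoxylate genes among the 9, were both lower on Wy14643 in wild-type mice. Agxt encodes alanine-glyoxylate aminotransferase, which turns glyoxylate into glycine and whose loss causes oxalate overproduction. Its intensity was 3101 (control) and 1013 (Wy14643) for wild-type pools, and 3401 and 2807 for PPARα-null pools. The wild-type Wy14643 pool lay far below the other 3. Agxt was 3.06-fold lower on Wy14643 in wild-type mice, where 242 of 7329 genes had a smaller ratio, and 1.21-fold lower in PPARα-null mice. Between the genotypes it differed by 1.10-fold on the control diet and was 2.77-fold lower in wild-type mice on Wy14643, so that only 9.04% of the log2 gap was present on the control diet.

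Hao1 encodes glycolate oxidase, which makes glyoxylate and hydrogen peroxide from glycolate. Its intensity was 2558 and 1675 in wild-type mice and 2366 and 1924 in PPARα-null mice on control diet and Wy14643. It was lower on Wy14643 in both genotypes, by 1.53-fold in wild-type mice, just past the threshold, and by 1.23-fold in PPARα-null mice. The genotypes differed by 1.15-fold on Wy14643.

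Of 6 other genes of glyoxylate and hydroxyproline metabolism, the wild-type pool was higher for 1 and lower for 2 when both genotypes received Wy14643. Grhpr, which reduces glyoxylate to glycolate, was 3.51-fold higher, and wild-type mice given Wy14643 exceeded their controls by 2.82-fold. The hydroxyproline pathway gene Hoga1, whose product releases glyoxylate, was 2.27-fold lower. The serine hydroxymethyltransferase gene Shmt1 was 2.72-fold lower by the probe set with the highest mean, but its 4 probe sets ranged from a log2 ratio of -1.45 to 0.29. On the control diet 0 of these 6 passed the threshold in either direction.

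Some hepatocyte markers were lower together with Agxt. On Wy14643 in wild-type mice, the tyrosine aminotransferase gene Tat, the urea cycle gene Cps1 and Fah, the last enzyme of tyrosine breakdown, were lower by log2 ratios of -1.55, -1.09 and -0.70, and 0 of 7 hepatocyte markers were higher, whereas the albumin gene Alb stood at 0.34. The summed intensity of the 7 markers was 66076 (control) and 60759 (Wy14643) for wild-type pools, and 66297 and 66781 for PPARα-null pools. Their part in the Agxt result was not tested. In whole liver, fewer cells of a type and less RNA per cell cannot be told apart. Markers of other liver cells also moved with the diet. The summed intensity of 9 Kupffer cell markers was 1086 in wild-type controls and 427 on Wy14643, and 1296 and 659 in PPARα-null mice; 7 of the 8 above background were lower on Wy14643 in wild-type and 8 of 8 in PPARα-null mice, with Marco below background on all arrays. For 7 sinusoidal endothelial markers, with Pecam1 below background on all arrays, the sums were 1393 and 728 in wild-type and 1477 and 679 in PPARα-null mice. Of the 6 above background, only 2 were lower on Wy14643 in wild-type and 3 in PPARα-null mice, with the rest between. Among the latter was Kdr, below background in PPARα-null mice on Wy14643, so that its smallest ratio of 1.22 stays under the threshold. For 7 stellate cell markers, with Lrat, Des and Col1a1 below background on all arrays, the sums were 1510 and 792, and 1642 and 2161. Of the 4 above background, 3 were lower on Wy14643 in wild-type mice and 3 were higher in PPARα-null mice. The 3 neutrophil markers summed to 43.7 or less on the other arrays and to 228.1 in PPARα-null mice on Wy14643. Of 4 cholangiocyte markers 3, and of 5 lymphocyte markers 4, were below background on all arrays, and 2 erythroid markers summed to 22.5 or less. The part of these cells in the members' ratios was not tested.

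**Figure D5:**
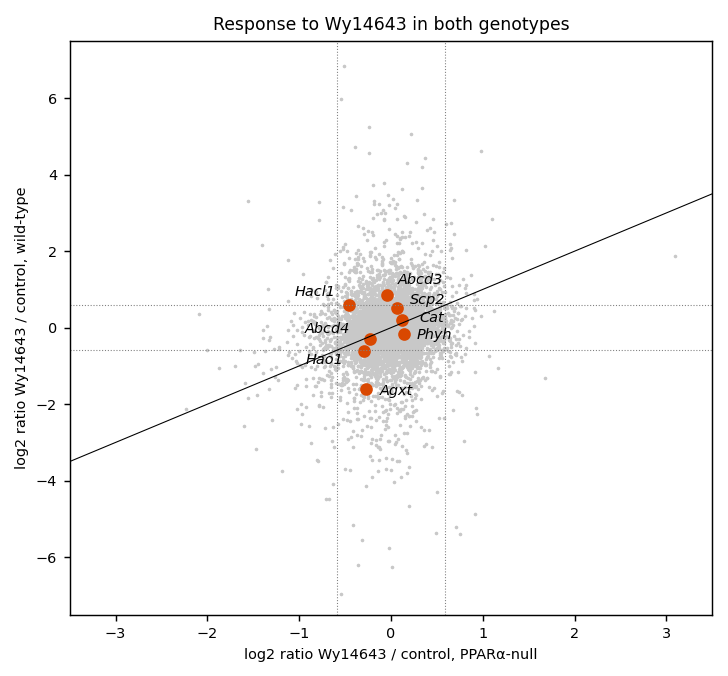
Response to Wy14643 (log2 ratio over control) of PPARα-null mice on the horizontal and of wild-type mice on the vertical axis, with 6316 genes that exceeded background on each array in grey and the 8 members among them (orange; Abcd2 was below background in PPARα-null mice on Wy14643). The axes differ in scale, the line marks equal ratios and dotted lines mark 1.5-fold. Abcd3 and Hacl1 lie above the line and Agxt below it, and Cat and Abcd4 lie next to it.

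The response to Wy14643 was compared between the genotypes as the log2 ratio in wild-type minus that in PPARα-null mice. For Abcd2, below background in PPARα-null mice on Wy14643, it was 1.30 from the deposited values and 0.90 with that pool set to background, so its place in the order is not settled. It was 1.04 for Hacl1, 0.90 for Abcd3 and 0.46 for Scp2, then 0.07 for Cat, -0.06 for Abcd4, -0.29 for Phyh, -0.31 for Hao1 and -1.34 for Agxt. The Scp2 value holds for its brightest probe set only. It became 0.01 with the median over probe sets and -0.14 with the dimmest probe set. As a double difference of 4 single arrays, the difference in response carries the error of all of them. For comparison, the standard deviation of the log2 ratio of Wy14643 to control over all genes was 0.33 in PPARα-null mice and 0.89 in wild-type mice. The values of Hacl1 and Abcd3 exceed the PPARα-null spread but are of about the size of the wild-type spread. These are spreads of a single ratio, an unlike measure, and the spread of the double difference over all genes was not computed. Neighbours in the order such as Hacl1 and Abcd3, Cat and Abcd4, or Phyh and Hao1 are closer to each other than either spread.

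Proteins reach the peroxisome through import receptors, and these genes were measured as well. Of 10 genes for import receptors and membrane-protein importers, 6 were higher and 1 lower in the wild-type than in the PPARα-null pool given Wy14643 (median log2 ratio 1.07). Pex19, the shuttle for membrane proteins such as the ABC transporters, was 6.23-fold, its membrane partner Pex16 5.37-fold and the docking gene Pex14 4.04-fold higher. The other probe set of Pex16, close to background, gave a log2 ratio of 0.08. Pex5 and Pex7 were picked for their cargo after their values were seen. Pex5, the receptor for enzymes with a carboxy-terminal signal such as catalase, was 2.21-fold higher, whereas Pex7, the receptor for an amino-terminal signal such as that of phytanoyl-CoA hydroxylase, stood at 1.12-fold. Pex2 was 1.67-fold lower.

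For the 8 members above background on all arrays (all but Abcd2), the genes with the nearest profile over the 4 arrays were found by the root mean square difference of centred log2 intensities among 6315 other such genes. For Abcd3 these were Sgk2 (0.07) and the acyl-CoA synthetase gene Acsl5 (0.07), and 7 genes lay within 0.1. For Hacl1 they were the stearoyl-CoA desaturase gene Scd1 (0.06) and Hmgb3 (0.11), and 1 gene lay within 0.1. Scd1 read 7578 and 10819 in wild-type mice and 4479 and 3439 in PPARα-null mice on control diet and Wy14643. As Scd1 was picked for its near profile, the directions it shares with Hacl1 follow from that choice. For Agxt they were Baat (0.05) and the serum amyloid P gene Apcs (0.05), and 23 genes lay within 0.1. For the other 5 members the nearest genes were Gm6958 and Borcs5 for Cat, Fuca1 and Ankfy1 for Phyh, Oaz2 and Wbp1 for Abcd4, Fbxw4 and Apex2 for Scp2 and Bub3 and Ext1 for Hao1, and between 107 and 831 genes lay within 0.1 of each. With 4 arrays, a near profile is easily met.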

How the data were processed

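Liver RNA pooled within each of 4 groups was measured on 4 Affymetrix MOE430A arrays. The deposited intensities are GCRMA values of the authors (GCRMA 2.20, by the submitters' processing notes), that is, background-corrected, quantile-normalized and summarised per probe set. Which arrays were normalized together is not given in the sources used here. As they span 1.55 to 31270.2, they are linear, and log2 was taken. Quantile normalization removes any shift common to all genes. The 64 control probe sets among 22690 were dropped. A platform annotation, updated through gene identifiers, gave 1 symbol for 20380 of the rest, several for 691 and none for 1555. The probe set with the highest mean stood for a gene. A ratio with 1 array below background is given as the smallest that background allows, and 1.5-fold, a threshold also used by the study, was applied. Members, gene lists and rules were chosen with earlier results of these data known; every member was named, and up to 3 genes per direction of each list. With 1 array per group no test was made, and the number of arrays limits precision. The calculation was tested on simulated data, where recovery was required only of changes well above 1.5-fold. That test does not show how often a 1.5-fold call is right. Calculations ran in Python 3.11.15 (numpy 2.4.6, pandas 2.3.3, matplotlib 3.10.9), and limma 3.58.1 in R 4.3.3 gave the cyclic loess alternative. Protein sequences were not used here.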

Additional observations from a re-analysis of the deposited data

Results flagged for a closer look

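In 4 of the 9 genes the single wild-type pool and the single PPARα-null pool moved in opposite directions on Wy14643. The wild-type minus PPARα-null difference of the log2 response was 1.30 for Abcd2, 0.90 for Abcd3, 1.04 for Hacl1 and -0.29 for Phyh. The difference was not tested, since each value rests on 4 single arrays. For Abcd3 the PPARα-null ratio was only -0.04 and for Phyh both ratios were under 0.16 in size, so their opposite signs rest on small values. For Abcd2 the treated PPARα-null pool was below background, and with it set to background the difference was 0.90.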

How the results depend on the processing

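Ratios were recomputed with 32 added to every intensity, a floor at background, arrays centred on their medians, cyclic loess, other choices of probe set, other filters on dim probe sets and a 2-fold threshold. Of 116 recomputed counts and medians of the 9 genes, 108 stayed within a set limit. This was 1.5 times the main count or, for medians, 0.33, the standard deviation of log2 ratios in PPARα-null mice. Every main median was smaller in size than 0.33, so staying within it says little about a median. Between the genotypes on Wy14643, the median went from 0.11 to -0.03 with the dimmest probe set above background. At 2-fold, the control-diet count of higher genes dropped from 3 to 1 (Abcd2), and in wild-type mice on Wy14643 the counts became 0 higher and 1 lower (Agxt). In PPARα-null mice, the count of 1 lower gene (Abcd2) became 0 with 32 added, with the floor, at 2-fold and with both arrays above background. With the dimmest probe set above background, the median in wild-type mice on Wy14643 became -0.16, since Scp2 then had a log2 ratio of -0.19 there, or -0.06 with the median over probe sets. With 32 added, the log2 ratio of Abcd2 between the genotypes became 2.42 on Wy14643 and 1.83 on the control diet, and its response difference 0.58. Among 315 values of single genes, 305 stayed within the spread, for which a wider limit was used for response differences. The 1.5-fold threshold was crossed by 3 values, all of Abcd2, and 0 of the single-gene values past it in the main setting changed sign. No paired analysis was possible because each group has 1 array.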
